A study of Rattus norvegicus with 9 samples.

Results

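Transcripts of 10 genes for CC chemokines (Ccl2, Ccl3, Ccl4, Ccl5, Ccl6, Ccl7, Ccl17, Ccl20, Ccl22 and Ccl24) were measured by RNA sequencing in rat dendritic cells grown from bone marrow. The genes were taken by name from a table of 20442 genes, and all 10 had a row and passed the filter on low values (at least 1 FPKM in at least 3 libraries), which kept 11141 genes. FPKM counts fragments for each kilobase of a gene, scaled to the depth of the library. Wild-type primary cells were grown with 10% serum, GM-CSF and IL-4 (20 ng/mL of each cytokine) in every group. Control cultures (n = 3) were untreated, LPS cultures (n = 3) received lipopolysaccharide, the endotoxin of Gram-negative bacteria that is sensed through Tlr4, and LPS+EVs cultures (n = 3) received LPS together with extracellular vesicles derived from ASCs. Strain, sex and age of the animals, and the dose of vesicles, are not known here. The labels give 1 treatment text for all samples, naming LPS (1 µg/mL) and 24 h, beside a dose of 50 ng/mL whose agent is not named. If both LPS groups received such an agent, its effect and that of LPS cannot be told apart. The titles name the replicates of each group biological ones without saying whether a replicate is an animal or a dish. The p-values thus set group differences against the spread between these cultures, and they may not extend to other animals.

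CC chemokines are small secreted proteins that attract leukocytes through G protein-coupled receptors named Ccr, and several ligands share a receptor. Dendritic cells that sense endotoxin release inflammatory members of the family, which draw monocytes, T cells and NK cells. Cells grown in IL-4 also make ligands of Ccr4, the receptor of regulatory and type 2 helper T cells, whose genes are activated through the transcription factor Stat6.

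Depth ranged from 32148519 to 39407116 reads per library, recovered from the steps of the FPKM values. The library numbered 2 in each group stood apart from those numbered 1 and 3 on the second principal component (21.0% of the variance). The summed level of 14 dendritic cell marker genes was 8573 to 9878 FPKM in the libraries numbered 2 and 1381 to 3589 FPKM in the other 6. Most of that sum was Cd74, at 5855 to 6137 FPKM in number 2 and 939 to 2550 in the others. The class II gene RT1-Da was at 912 to 1477 and 39.0 to 386 FPKM. The smaller markers differed among themselves. In LPS replicates 1, 2 and 3, Itgax was at 37.0, 36.9 and 42.6 FPKM, Cd86 at 72.8, 76.5 and 161, and Cd83 at 47.0, 134 and 65.2. Of the 14 markers 13 reached 1 FPKM in each group, but Flt3, the receptor that defines dendritic cells of the Flt3 ligand lineage, was at 0 to 0.108 FPKM. The 13 macrophage and monocyte markers summed to 7119 to 9014 FPKM in Control, 3724 to 7167 in LPS and 4266 to 6940 in LPS+EVs. The 8 stromal markers summed to 117 to 160 FPKM in the libraries numbered 2 and 375 to 856 in the others. The part of these cells in the results below was not tested. Fewer cells of a type and less RNA per cell cannot be told apart in bulk RNA.

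Against Control, LPS raised 6 of the 10 CC chemokine genes and lowered 1. Ccl5, Ccl3 and Ccl4 rose most, with group means 17.2-fold, 8.22-fold and 6.61-fold higher. Ccl20 rose as well, its mean 6.56-fold higher, as did Ccl22 (3.92-fold) and Ccl7 (3.29-fold), and Ccl6, the most abundant of the 10 by mean FPKM in untreated cells, fell to 0.336 of its Control mean. These calls came from limma on log2(FPKM + 1) over all 11141 genes, with two-sided p-values adjusted by Benjamini-Hochberg and a threshold of 0.05. By the same rule 12.3% of all tested genes were called higher (1368 genes) and 28.7% lower (3201 genes). The median log2 difference was 1.75 over the 10 genes and -0.19 over all tested genes. Scaling by median-of-ratios moved the latter by 0.19 and gave 1895 genes higher and 2307 lower (17.1% and 20.8%). That took the share of higher calls from 29.9% to 45.1%, with 7 of the 10 genes higher and 1 lower. With the replicate number as a block, 7 of the 10 genes were called higher and 3 lower, against 17.2% and 35.5% of all tested genes. With the libraries numbered 1 and 3 alone, 7 were higher and 1 lower, against 16.3% and 26.8%.

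**Figure D1:**
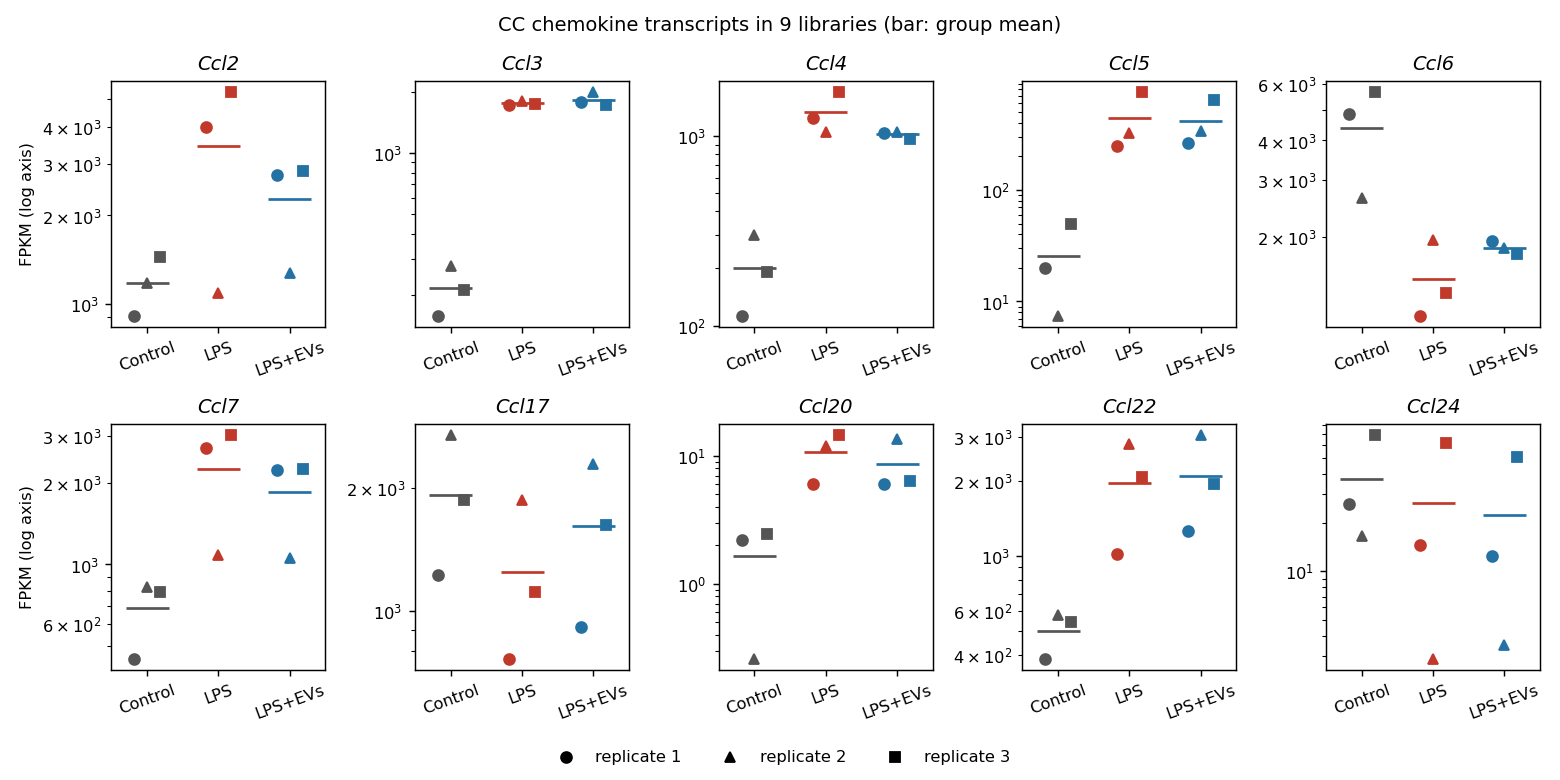
FPKM (log axis, with its own range in each panel) of each CC chemokine gene in the 9 libraries, by group, with symbols for the replicate number and a bar at the group mean. Ccl3 and Ccl4 sit higher in all LPS and LPS+EVs libraries than in any Control library, Ccl6 sits lower, and Ccl2 overlaps, with LPS replicate 2 at 1089 FPKM.

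Ccl3 and Ccl4, which encode MIP-1alpha and MIP-1beta, neighbour each other in the RefSeq gene order and attract monocytes and T cells, with Ccl3 acting through Ccr1 among others. Ccl3 was at 157, 275 and 211 FPKM in Control replicates 1, 2 and 3, at 1717, 1815 and 1754 in LPS, and at 1788, 1998 and 1726 in LPS+EVs. All 6 treated libraries were above all Control libraries, and the 3 LPS libraries had a coefficient of variation of 2.80%. LPS and Control thus differed by a log2 value of 3.07 (SE 0.19, adjusted p = 1.12e-05 by limma). Ccl4 was at 113, 301 and 192 FPKM in Control, at 1250, 1051 and 1702 in LPS, and at 1042, 1054 and 966 in LPS+EVs. Its Control libraries varied more than its treated ones, and the groups with LPS did not overlap Control. The log2 difference was 2.80 (SE 0.32, adjusted p = 0.000323).

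Ccl5, or RANTES, attracts T cells, NK cells and monocytes. It was at 20.1, 7.46 and 49.5 FPKM in Control, at 248, 324 and 752 in LPS, and at 265, 340 and 634 in LPS+EVs. Replicate 3 was the highest library of each group, and every treated library was above the Control range. For LPS against Control the log2 difference was 4.24 (SE 0.66, adjusted p = 0.00142), the largest of the 10 genes. T and NK cells also make Ccl5, and the 7 markers of those cells that the table holds, of 12 looked for, summed to 58.5 to 90.4 FPKM in Control, 109 to 218 in LPS and 87.2 to 105 in LPS+EVs. Most of that sum was Il7r, at 37.8 to 59.2 FPKM in Control and 100.2 to 203 in LPS. Of the 4 markers tested, Il7r was called higher, and Cd8a (mean 5.97 FPKM in Control against 0.732) and Cd4 (16.8 against 8.27) were called lower. The other tested marker, Gzmb, was not called, at 0.579, 0.252 and 0.176 FPKM in Control and 1.65, 0.415 and 2.82 in LPS. Of all tested genes 12.3% were called higher and 28.7% lower. The T cell receptor subunit Cd3d was at 0 FPKM in 8 of the 9 libraries and at 0.0772 in LPS+EVs replicate 3, and the NK cell gene Nkg7 was at most 0.609 FPKM. Ncr1, another NK cell gene, was below the filter, with means of 0.217 FPKM in Control and 0.492 in LPS.

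Ccl2 and Ccl7, or MCP-1 and MCP-3, are neighbours in the gene order and attract monocytes through Ccr2. Ccl7 was at 447, 822 and 793 FPKM in Control, at 2698, 1087 and 3008 in LPS, and at 2246, 1061 and 2250 in LPS+EVs. All treated libraries were above Control, but those numbered 2 by the least. LPS exceeded Control by 1.64 on the log2 scale (SE 0.45, adjusted p = 0.0202). The call was lost without Control replicate 1 (adjusted p = 0.0789), without LPS replicate 1 (0.0651), without LPS replicate 3 (0.0586) and with no filter on low values (0.0546).

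Ccl2 was at 911, 1176 and 1445 FPKM in Control, at 4008, 1089 and 5262 in LPS, and at 2742, 1272 and 2829 in LPS+EVs. LPS replicates 1 and 3 were far above Control, and LPS replicate 2 lay within the Control range. The log2 difference between LPS and Control was 1.30 (SE 0.57, adjusted p = 0.0977), which did not pass, though the group mean was 2.93-fold higher. It passed with the replicate block (adjusted p = 0.0221), with median-of-ratios scaling (0.0397) and with limma-voom on recovered reads (0.0413). Without LPS replicate 2 the difference was 1.99 (adjusted p = 0.0040), and with the libraries numbered 1 and 3 alone it was 1.9996 (adjusted p = 0.0015). Between libraries of the same number the log2 difference was 2.14, -0.11 and 1.86 for Ccl2 and 2.59, 0.40 and 1.92 for Ccl7 (numbers 1, 2 and 3). Number 2 thus had the least difference for both genes, as it did for Ccl3 (2.72) and Ccl4 (1.80).

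**Figure D2:**
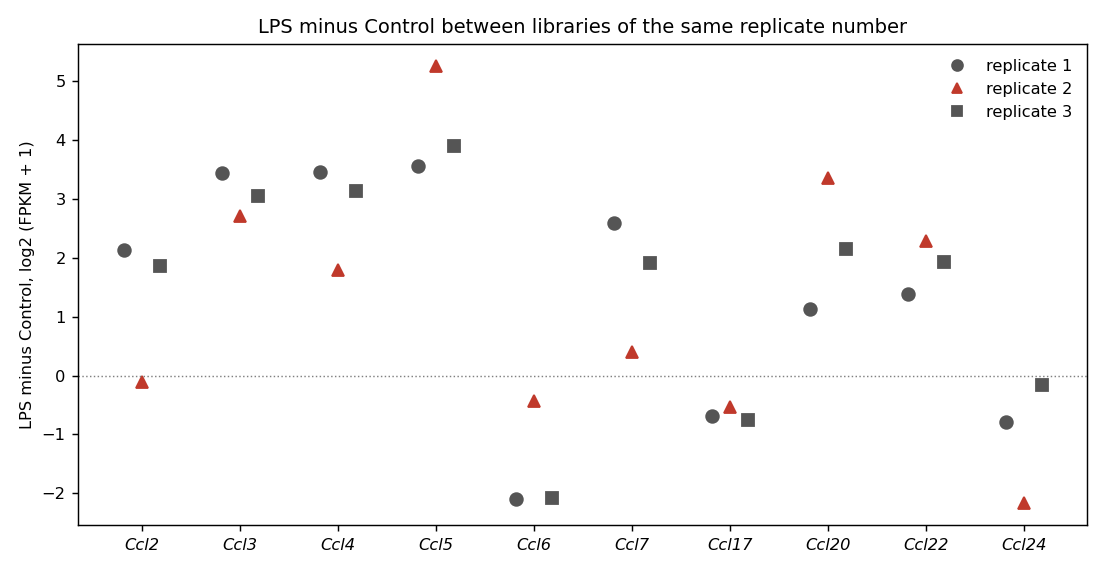
LPS minus Control on the log2(FPKM + 1) scale between libraries of the same replicate number, for each CC chemokine gene. The red triangles (number 2) lie near 0 for Ccl2 (-0.11), Ccl7 (0.40) and Ccl6 (-0.44), and above the other numbers for Ccl5 (5.26), Ccl20 (3.35), Ccl22 (2.28) and Ccl17 (-0.53).

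Ccl22 and Ccl17, or MDC and TARC, are the ligands of Ccr4, and only Cx3cl1 lies between their genes in the order of protein-coding genes. Ccl22 was at 385, 576 and 540 FPKM in Control, at 1015, 2804 and 2066 in LPS, and at 1260, 3041 and 1944 in LPS+EVs. All treated libraries were above Control, and number 2 was the highest of each group. The log2 difference between LPS and Control was 1.87 (SE 0.42, adjusted p = 0.0079). Ccl17 was at 1225, 2697 and 1875 FPKM in Control, at 765, 1874 and 1116 in LPS, and at 918, 2302 and 1629 in LPS+EVs. Number 2 was again the highest library of each group, and the groups overlapped. The log2 difference between LPS and Control was -0.65 (SE 0.44, adjusted p = 0.264), which did not pass without the block. Within numbers 1, 2 and 3 it was -0.68, -0.53 and -0.75, lower in 3 of 3, and with the replicate block it passed at the same size (SE 0.11, adjusted p = 0.0023).

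The ratio of Ccl22 to Ccl17 within a library, examined after the values of both genes were seen, was 0.314, 0.213 and 0.288 in Control. It was 1.33, 1.497 and 1.85 in LPS and 1.37, 1.32 and 1.19 in LPS+EVs. By FPKM, Ccl17 was the higher of the pair in each Control library and Ccl22 in each treated library. By reads, which are not per length, Ccl22 was the higher in Control as well (26509 against 13625, 33133 against 25084 and 36968 against 20748 reads). Which of the pair is higher thus rests on the lengths behind the FPKM values, 1746 bases for Ccl22 and 282 for Ccl17, while the change of the ratio between groups does not. The 3 values of a group lay close together although both genes were highest in number 2. For Ccl2 over Ccl7 the ratio was 1.43 to 2.04 in Control, 1.00 to 1.75 in LPS and 1.199 to 1.26 in LPS+EVs. For Ccl3 over Ccl4 it was 0.916 to 1.40, 1.03 to 1.73 and 1.72 to 1.89. In these 2 pairs LPS and Control overlapped, while LPS+EVs lay below Control for Ccl2 over Ccl7 and above it for Ccl3 over Ccl4. LPS+EVs overlapped LPS in both pairs. An exact permutation test gave p = 0.1 for both separations from Control, and 3 against 3 libraries can give no lower value.

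**Figure D3:**
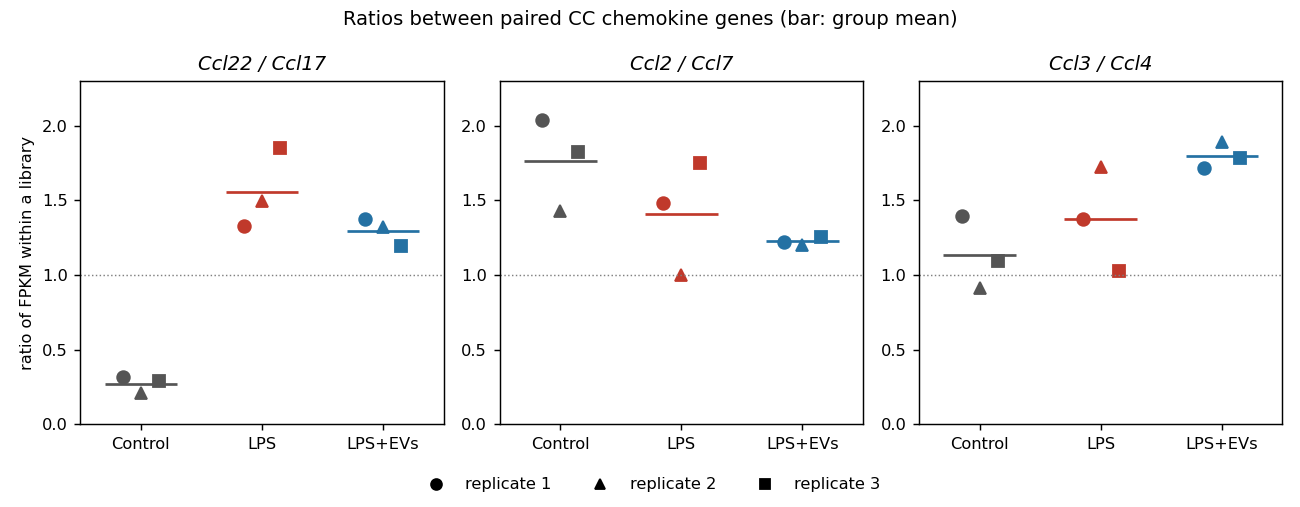
Ratio of FPKM within each library for 3 pairs of CC chemokine genes, by group, with symbols for the replicate number, a bar at the group mean and a dotted line at equal levels. The ratio of Ccl22 to Ccl17 is at most 0.314 in Control and at least 1.19 in all other libraries, while the other 2 ratios overlap between LPS and Control but not between LPS+EVs and Control. LPS+EVs overlaps LPS in these 2 ratios.

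Promoters were matched by symbol for 6 of the 10 genes in RefSeq (build GRCr8, not the build of the expression table, from 250 bases before the annotated start to 50 after it). Those of Ccl22 and Ccl17 are shown because the ratio of these neighbours differed between Control and LPS, and those of Ccl20 and Ccl6 as a gene that rose and the gene that fell. Capitals mark matches, on either strand, to the NF-kB consensus, to the STAT motifs TTCNNNGAA and TTCNNNNGAA, or to the TATA box (TATAAA or TATATA), and the Ccl22 window holds none of them.
Ccl22, chr19:10270310-10270609, minus strand: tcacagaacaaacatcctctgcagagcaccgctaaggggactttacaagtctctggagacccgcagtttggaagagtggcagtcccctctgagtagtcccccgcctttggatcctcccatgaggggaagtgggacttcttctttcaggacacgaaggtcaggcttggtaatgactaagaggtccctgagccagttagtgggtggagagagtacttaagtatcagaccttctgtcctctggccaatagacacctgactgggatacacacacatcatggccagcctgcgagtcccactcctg
Ccl17, chr19:10209846-10210145, minus strand: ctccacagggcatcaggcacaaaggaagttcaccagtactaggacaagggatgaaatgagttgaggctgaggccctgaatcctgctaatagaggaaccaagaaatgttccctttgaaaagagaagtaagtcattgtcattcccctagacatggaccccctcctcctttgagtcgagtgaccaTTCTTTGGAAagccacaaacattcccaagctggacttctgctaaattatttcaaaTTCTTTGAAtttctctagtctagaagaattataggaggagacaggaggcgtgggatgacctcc
Ccl20, chr9:91836909-91837208, plus strand: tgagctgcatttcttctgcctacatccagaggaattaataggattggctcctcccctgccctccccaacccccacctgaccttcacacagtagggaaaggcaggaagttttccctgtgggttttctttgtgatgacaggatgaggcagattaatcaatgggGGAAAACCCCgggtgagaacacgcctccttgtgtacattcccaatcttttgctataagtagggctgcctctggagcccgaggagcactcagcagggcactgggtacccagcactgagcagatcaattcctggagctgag
Ccl6, chr10:68883317-68883616, minus strand: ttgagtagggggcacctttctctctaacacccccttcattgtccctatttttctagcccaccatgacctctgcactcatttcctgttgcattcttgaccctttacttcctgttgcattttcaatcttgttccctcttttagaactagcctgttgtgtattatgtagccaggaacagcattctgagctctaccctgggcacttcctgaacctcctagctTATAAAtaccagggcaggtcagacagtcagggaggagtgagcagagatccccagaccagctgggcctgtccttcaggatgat

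The Ccl17 window holds both STAT motifs, at bases 183 to 192 and 238 to 246 of the 300, and lies inside the annotated span of its gene. The Ccl20 window holds a match to the NF-kB consensus on the minus strand at bases 162 to 171, and the Ccl6 window holds a TATA box at bases 219 to 224. Among all 33469 promoters of that table, 4.18% hold the NF-kB consensus, 8.87% TTCNNNGAA, 7.28% TTCNNNNGAA and 17.8% a TATA box. Of the 6 matched CC chemokine promoters, 1 holds the NF-kB consensus, 3 hold TTCNNNGAA (Ccl7, Ccl17 and Ccl24), 1 holds TTCNNNNGAA and 3 hold a TATA box (Ccl6, Ccl7 and Ccl24). These are matches of letters and not measured binding.

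Ccl20, or MIP-3alpha, is the chemokine ligand of Ccr6, which is carried by Th17 cells and immature dendritic cells. It was the least abundant of the 10 genes, at 2.20, 0.260 and 2.46 FPKM in Control (71, 7 and 79 reads). In LPS it was at 6.05, 11.9 and 14.4 FPKM (191, 356 and 454 reads), and in LPS+EVs at 6.02, 13.6 and 6.35. Every treated library was above every Control library, and Control replicate 2 was the lowest by far. In log2 terms LPS exceeded Control by 2.21 (SE 0.47, adjusted p = 0.0063). Adding 1 to the FPKM understates the change at these low levels.

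Ccl6 is a rodent ligand of Ccr1 made by myeloid cells. It was at 4831, 2650 and 5665 FPKM in Control, at 1132, 1954 and 1333 in LPS, and at 1932, 1845 and 1761 in LPS+EVs. Control was above both treated groups in every library, with Control replicate 2 nearest to them. The log2 difference between LPS and Control was -1.54 (SE 0.30, adjusted p = 0.0041), and within numbers 1, 2 and 3 it was -2.09, -0.44 and -2.09. The summed level of 9 neutrophil markers was lower too, at 31.6 to 263 FPKM in Control and 2.17 to 6.88 in LPS, with Control replicate 2 the lowest of its group. Most of that sum in Control replicates 1 and 3 was S100a8, at 187 and 81.6 FPKM against 6.75 in replicate 2. Cxcr2 was instead highest in Control replicate 2 (21.2 FPKM), and it was at most 0.512 in LPS. Mpo, Elane, Ltf and Ngp were under 1 FPKM in every library. Of the 4 neutrophil markers tested, 2 were called lower and none higher. The macrophage marker sum was lower in LPS within each number as well, by the least in number 2 (9014 against 7167 FPKM). Of the 13 macrophage markers 2 were called higher and 8 lower. Of all tested genes 12.3% were called higher and 28.7% lower. Most of the macrophage sum was the lysozyme gene Lyz2 (mean 6515 FPKM in Control and 3449 in LPS), while the endotoxin co-receptor Cd14 rose (302 and 739 FPKM). The part of either in the change of Ccl6 was not tested. Of the mast cell, basophil and eosinophil markers, whose cells also make Ccl6, Cpa3 was at most 0.279 FPKM and only Siglec5 reached 1 FPKM. Siglec5 was called higher, at 24.5, 2.51 and 10.0 FPKM in Control and 82.4, 46.3 and 61.6 in LPS.

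Ccl24, or eotaxin-2, attracts eosinophils through Ccr3. It was at 25.9, 16.5 and 68.9 FPKM in Control, at 14.6, 2.89 and 61.9 in LPS, and at 12.4, 3.52 and 50.4 in LPS+EVs. Number 3 was the highest and number 2 the lowest library in each group, and the groups overlapped widely. Its log2 difference, LPS minus Control, was -1.03 (SE 1.13, adjusted p = 0.488). Within numbers 1, 2 and 3 it was -0.78, -2.17 and -0.15, and with the replicate block it passed (SE 0.33, adjusted p = 0.0292).

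The make-up of the CC chemokine transcripts changed with LPS. The 10 genes summed to 9160 ± 1470 FPKM (SD, n = 3) in Control, against 13979 ± 2709 under LPS and 12979 ± 793 under LPS+EVs. Ccl6 held 47.6% ± 14.8 (SD, n = 3) of the Control sum, 10.96% ± 4.62 of that in LPS and 14.3% ± 1.53 of that in LPS+EVs. Ccl17 held 21.3% ± 8.99, 9.36% ± 5.41 and 12.4% ± 5.17. Ccl3 went from 2.37% ± 0.746 in Control to 12.9% ± 2.45 in LPS and 14.2% ± 1.52 in LPS+EVs. Ccl22 went from 5.49% ± 1.10 to 14.4% ± 7.99 and 16.0% ± 6.80, and Ccl2 from 12.8% ± 1.37 to 23.7% ± 12.7 and 17.6% ± 6.79.

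The sum per length rests on the gene lengths behind the FPKM values, which are 279 bases for Ccl4, 282 for Ccl17 and 348 for Ccl6 but 1746 for Ccl22 and 1462 for Ccl24, as implied by the recovered reads. The first 3 of these lengths are multiples of 3, but so are those of Ccl22, Ccl2 (780 bases) and Ccl7 (807 bases). Whether the 3 short gene models hold the coding part alone was not tested. If they do, their FPKM would be raised relative to the other genes where reads from the whole mRNA were counted. As a share of reads, Ccl22 held 18.6% of the Control sum, 32.1% of that in LPS and 35.9% with vesicles, and Ccl6 held 32.6%, 4.89% and 6.51%. By mean share Ccl22 came first by reads in both treated groups and Ccl2 by FPKM, but the libraries differed. Ccl2 had more reads than Ccl22 in LPS replicates 1 and 3 (120795 against 68418, and 158137 against 138888) and far fewer in LPS replicate 2 (31166 against 179620). The fall of the Ccl6 share and the rise of the Ccl22 share from Control held on both scales.

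**Figure D4:**
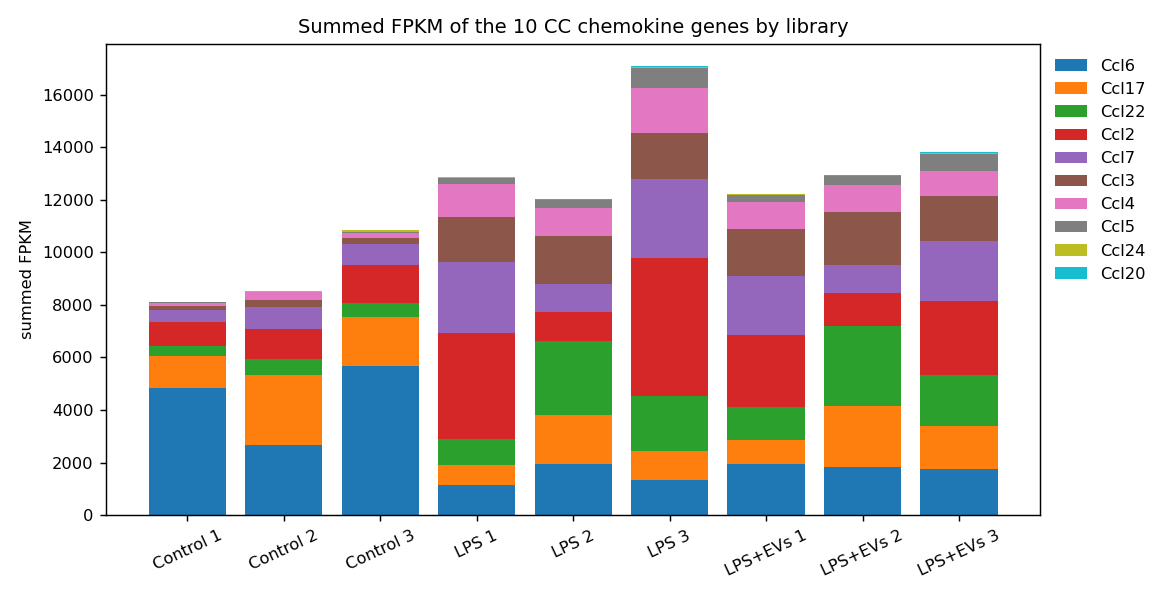
Summed FPKM of the 10 CC chemokine genes in each library (bar height), split by gene (colours). Ccl6 and Ccl17 fill most of each Control bar, while Ccl2, Ccl7, Ccl22, Ccl3 and Ccl4 fill most of each LPS and LPS+EVs bar.

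By mean FPKM the order in Control was Ccl6, Ccl17, Ccl2, Ccl7, Ccl22, Ccl3, Ccl4, Ccl24, Ccl5 and Ccl20. Neighbours in that order overlapped in range except Ccl2 with Ccl7, Ccl22 with Ccl3, Ccl4 with Ccl24, and Ccl5 with Ccl20. In LPS the order was Ccl2, Ccl7, Ccl22, Ccl3, Ccl6, Ccl4, Ccl17, Ccl5, Ccl24 and Ccl20. There the first 7 genes lay at means of 1252 to 3453 FPKM, each overlapping the next, and only Ccl17 with Ccl5 and Ccl5 with Ccl24 were apart. In LPS+EVs the order was Ccl2, Ccl22, Ccl7, Ccl6, Ccl3, Ccl17, Ccl4, Ccl5, Ccl24 and Ccl20, with only Ccl4 and Ccl5, and Ccl5 and Ccl24, apart.

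With vesicles added to LPS, none of the 10 genes passed the same test. LPS+EVs against LPS gave 0 called genes of 11141 by limma (a background of 0% higher and 0% lower), and 0 by limma-voom. At an unadjusted p under 0.05 there were 295 genes, none of them among the 10, and without LPS replicate 2 a single gene of the table was called. Each of the 10 genes had an adjusted p of 0.999, and the median log2 difference was -0.06 over them and -0.01 over all tested genes. The closest bounds were for Ccl3, with a difference of 0.06 and a 95% interval of -0.37 to 0.49. Ccl4 was at -0.36 (-1.09 to 0.38), Ccl6 at 0.36 (-0.31 to 1.04), Ccl22 at 0.11 (-0.83 to 1.06), Ccl17 at 0.37 (-0.63 to 1.37) and Ccl7 at -0.24 (-1.27 to 0.80). For Ccl20 it was -0.30 (-1.37 to 0.77), for Ccl2 -0.41 (-1.69 to 0.88), for Ccl5 -0.03 (-1.53 to 1.47) and for Ccl24 -0.10 (-2.66 to 2.46). A doubling and a halving, 1 and -1 on this scale, both lie outside the interval for Ccl3 alone. With the replicate block both lie outside for Ccl3 (-0.29 to 0.41), Ccl5 (-0.79 to 0.74), Ccl17 (0.11 to 0.63), Ccl22 (-0.29 to 0.52) and Ccl24 (-0.85 to 0.66).

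Between libraries of the same number, Ccl17 was higher with vesicles in 3 of 3 numbers, by 0.26, 0.30 and 0.55 on the log2 scale, and its interval with the replicate block, which is not adjusted for the number of genes, excluded 0, while its adjusted p there was 0.776. Ccl7 was lower in 3 of 3, by -0.26, -0.04 and -0.42 (adjusted p = 0.900 with the block). Each of the other 8 genes went up in some numbers and down in others. Ccl2 was lower in numbers 1 and 3 (-0.55 and -0.90) and higher in number 2 (0.22). With the libraries numbered 1 and 3 alone its difference was -0.72 (adjusted p = 0.317), and 0 of the 10 genes were called.

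**Figure D5:**
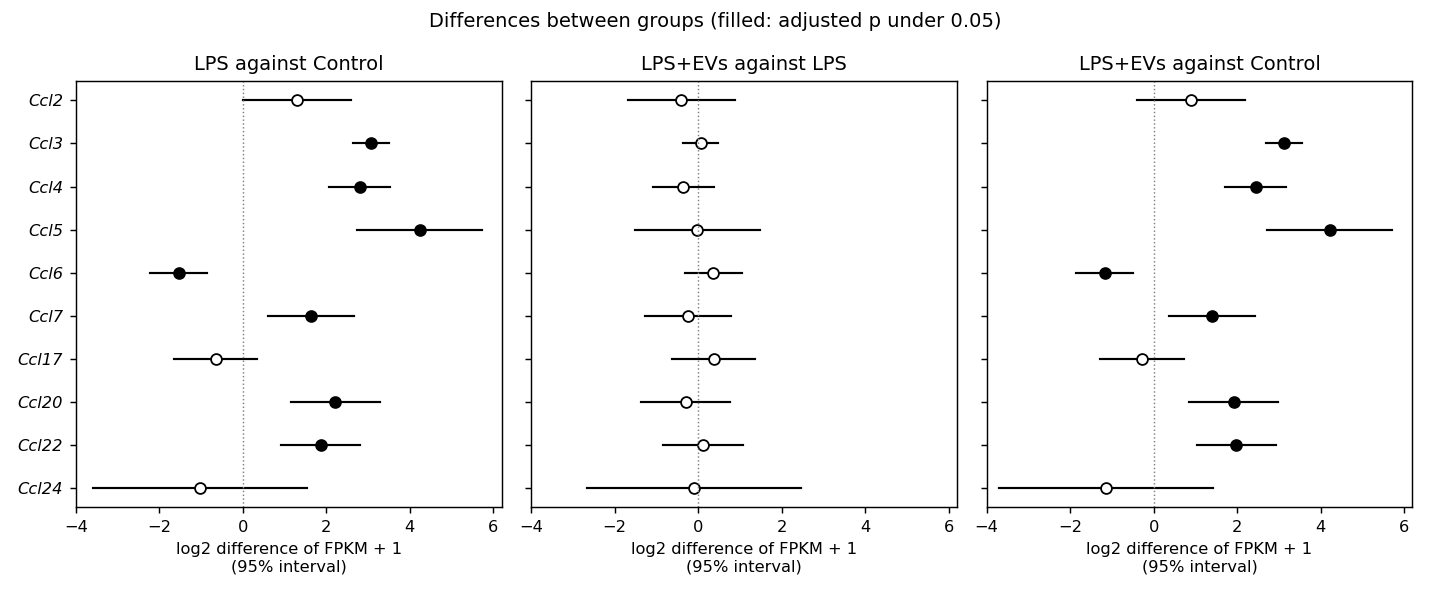
Log2 difference of FPKM + 1 for each CC chemokine gene in the 3 comparisons, with 95% intervals from limma, filled where the adjusted p is under 0.05. In LPS+EVs against LPS all 10 intervals include 0, and the 2 comparisons with Control, which share their Control libraries, each show 6 genes higher and 1 lower.

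LPS+EVs against Control shares its Control libraries with the first comparison. It called Ccl3, Ccl4, Ccl5, Ccl7, Ccl20 and Ccl22 higher and Ccl6 lower, where 13.5% of all tested genes were higher (1505 genes) and 30.8% lower (3436 genes). With median-of-ratios scaling 2081 genes were higher and 2481 lower (18.7% and 22.4%), which took the share of higher calls from 30.5% to 45.6%, with 6 of the 10 genes higher and 0 lower. With the replicate block 6 were higher and 2 lower (17.8% and 37.4% of all tested genes), and with the libraries numbered 1 and 3 alone 7 were higher and 1 lower (16.7% and 29.9%). The log2 difference was 3.13 for Ccl3 (SE 0.19), 2.44 for Ccl4 (SE 0.32) and 4.21 for Ccl5 (SE 0.66). It was 1.98 for Ccl22 (SE 0.42, adjusted p = 0.0056), 1.92 for Ccl20 (SE 0.47, adjusted p = 0.0110), and 1.40 for Ccl7 (SE 0.45, adjusted p = 0.0348).

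For Ccl6 the difference from Control was -1.18 (SE 0.30, adjusted p = 0.0124), and with median-of-ratios scaling it did not pass (adjusted p = 0.0502). The Ccl7 call was lost without Control replicate 1, 2 or 3 (adjusted p = 0.122, 0.0547 and 0.0627), without LPS+EVs replicate 1 or 3 (0.106 and 0.0982) and with no filter (0.0839). Ccl2 was at 0.89 (SE 0.57, adjusted p = 0.232), with the libraries numbered 1 and 3 alone at 1.28 (adjusted p = 0.0071), and with the block and median-of-ratios scaling together at 1.12 (adjusted p = 0.0287). Ccl17 was at -0.28 (SE 0.44, adjusted p = 0.630). Ccl24 was at -1.13 (SE 1.13, adjusted p = 0.445) and passed with the replicate block (adjusted p = 0.0196).

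Of 10 other CC ligands, 3 were tested, 4 were below the filter and 3 had no row under these symbols. LPS raised 1 of the 3 and lowered none, where 12.3% of all tested genes were called higher and 28.7% lower. The gene raised was Ccl9, a Ccr1 ligand whose gene lies between Ccl5 and Ccl6, at 77.6, 175 and 70.3 FPKM in Control and 225, 245 and 304 in LPS (log2 difference 1.37, SE 0.31, adjusted p = 0.0087). Ccl9 thus rose where its neighbour Ccl6 fell. Ccl9 was again called in LPS+EVs against Control (1.04, adjusted p = 0.0256). That call was lost with no filter and without any 1 of Control replicates 1 and 3 and LPS+EVs replicates 1 and 2 (adjusted p = 0.0582 to 0.0934). Ccl12, a Ccr2 ligand, was at -0.53 in LPS against Control (adjusted p = 0.320, 0.0497 with the replicate block) and at -0.77 in LPS+EVs against Control (0.153, 0.0113 with the block). Ccl1, the Ccr8 ligand, was at -1.30 in LPS+EVs against Control (adjusted p = 0.202, 0.0017 with the block).

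Among the receptors of CC chemokines, Ccr2, the receptor of Ccl2 and Ccl7, fell from 10.4, 12.9 and 12.2 FPKM in Control to 0.480, 2.78 and 0.295 in LPS (log2 difference -2.73, SE 0.49, adjusted p = 0.0030). Ccr1 fell by less, -0.47 (adjusted p = 0.0395), and its call was lost with median-of-ratios scaling (adjusted p = 0.308), with limma-voom (0.287), with no filter (0.0654) and without Control replicate 1 or 3 or LPS replicate 1 or 2 (0.0799 to 0.132). Ccr2 was thus lower in the cultures where its ligand Ccl7 was higher. Ccr7, which guides dendritic cells to lymph nodes, rose from 48.5, 65.8 and 103 to 147, 142 and 417 FPKM (1.56, SE 0.47, adjusted p = 0.0288). That call was lost with no filter (0.0677) and without replicate 1 of Control (0.104), replicate 2 of Control (0.0776) or replicate 3 of LPS (0.0624). Ccrl2, an atypical receptor that binds chemerin, rose by 1.71 (SE 0.23, adjusted p = 0.000656). With vesicles, against Control, Ccr7 was at 1.32 (adjusted p = 0.0504, 0.0014 with the block) and Ccr1 at -0.70 (0.0067, but 0.0664 with median-of-ratios scaling and 0.0547 with limma-voom).

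Of 13 transcription factors of inflammatory chemokine genes, LPS raised 3 and lowered 1, where 12.3% of all tested genes were higher and 28.7% lower. With the replicate block 7 were higher and 1 lower, against 17.2% and 35.5%, and the genes gained were the NF-kB subunits Rel (0.72, adjusted p = 0.158 and with the block 0.0285) and Relb (0.54, 0.105 and 0.0474) and the interferon factors Irf1 (0.76, 0.188 and 0.0157) and Stat2 (0.54, 0.0779 and 0.0053). Irf7, which drives interferon responses, rose from 38.8, 194 and 93.8 FPKM to 578, 1025 and 577 (log2 difference 2.96, SE 0.52, adjusted p = 0.0026). Nfkbiz, a nuclear cofactor of NF-kB, rose by 1.93 (SE 0.24, adjusted p = 0.000471) and the NF-kB subunit Nfkb2 by 0.97 (SE 0.23, adjusted p = 0.0112). Irf5, a factor of inflammatory cytokine genes, was lower, at -0.73 (adjusted p = 0.0083), a call lost with median-of-ratios scaling (0.0651). The same 4 genes were called in LPS+EVs against Control. There too 7 were higher and 1 lower with the block (17.8% and 37.4% of all tested genes). The genes gained were again Rel (adjusted p = 0.186 and with the block 0.0374), Relb (0.0521 and 0.0208), Irf1 (0.0803 and 0.0037) and Stat2 (0.0574 and 0.0034). In that comparison Nfkb2 (adjusted p = 0.0154) was not called without Control replicate 1 (0.0593) or LPS+EVs replicate 2 (0.0540), nor Irf5 with median-of-ratios scaling (0.0677).

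In the IL-4 and Stat6 list of 13 genes, linked to Ccl17, Ccl22 and Ccl24, LPS raised 2 and lowered 3, and with the replicate block 4 were higher and 3 lower (all tested genes as for the transcription factors). The median log2 difference was -0.19 for this list, as for all tested genes. Myc fell from 63.0, 56.7 and 60.2 FPKM to 6.81, 7.07 and 5.05 (log2 difference -3.07, SE 0.21, adjusted p = 1.78e-05). Egr2, a factor induced by IL-4 in macrophages, fell by 1.85 (SE 0.24, adjusted p = 0.000648) and Pparg, a lipid-sensing nuclear receptor, at -1.77 (SE 0.40, adjusted p = 0.0086). Socs3 and Socs1, inhibitors of cytokine signalling, rose by 1.64 (adjusted p = 0.0021) and 0.84 (adjusted p = 0.0231). For Socs1 the adjusted p was 0.0840 when the first Control replicate was left out, 0.0758 when the third was, and 0.0594 when replicate 2 of LPS was, so that each of these ended the call. The receptor subunits Il4r (0.55, adjusted p = 0.0678) and Il13ra1 (0.56, 0.0546) passed only in some settings, among them the block (0.0402 and 0.0485), median-of-ratios scaling (0.0144 and 0.0387) and limma-voom (0.0156 and 0.0313). Stat6 itself was at -0.08 (SE 0.27, adjusted p = 0.837). Against Control, LPS+EVs had 2 higher and 4 lower, where 13.5% of all tested genes were higher and 30.8% lower. The further one was Jak1 at -0.28 (adjusted p = 0.0370), which was lost with median-of-ratios scaling (0.739), with limma-voom (0.725) and without any single library of the 2 groups (0.0670 to 0.131). Socs1 (adjusted p = 0.0229) lost its call there without Control replicate 1 (0.0813), Control replicate 3 (0.0754) or LPS+EVs replicate 2 (0.0689). Pparg was there at -1.39 (adjusted p = 0.0217), a call lost with no filter, with median-of-ratios scaling and without any of Control replicates 1 and 2 and LPS+EVs replicates 1 and 3 (0.0533 to 0.0825).

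Among 8 genes of chemokine mRNA decay and stability, LPS raised 2 and lowered 2, where 12.3% and 28.7% of all tested genes were called. Zfp36, or tristetraprolin, which speeds the decay of AU-rich mRNAs, rose from 18.8, 22.0 and 19.2 FPKM to 69.9, 171 and 44.7 (log2 difference 1.97, SE 0.47, adjusted p = 0.0106). Zc3h12a, or regnase-1, an endonuclease that cuts inflammatory mRNAs, rose by 1.92 (SE 0.19, adjusted p = 0.000142). Zfp36l2, of the tristetraprolin family, fell by 1.22 (SE 0.18, adjusted p = 0.0012), as did Hnrnpd, an AU-rich element binding protein, which fell by 0.58 (SE 0.11, adjusted p = 0.0046). Of 7 tested genes that process or bind chemokines, LPS raised 2 and lowered none. They were the syndecans Sdc1 (28.2 ± 6.14 FPKM in Control and 168 ± 5.65 in LPS, SD, n = 3) and Sdc4 (44.5 ± 15.4 and 141 ± 16.3), cell-surface proteoglycans that hold chemokines. Dpp4, a protease that trims chemokines, was below the filter in all groups. None of the genes of these 6 lists was called in LPS+EVs against LPS (0 by limma).

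Genes whose pattern was most like each CC chemokine were taken by the root-mean-square (RMS) difference of centred log2(FPKM + 1) over the 9 libraries, as a description. Ccl3 was closest to Acod1, which makes itaconate (RMS 0.253), and LOC102547847. Ccl4 was closest to Rgs1, a regulator of chemokine receptor signalling (0.222), and Usp18, a brake on interferon signalling. Ccl22 was closest to Sema7a (0.173) and the Notch ligand Jag1 (0.218), which like it were highest in number 2 of each group. Ccl17 was closest to Slc22a17 (0.171) and LOC100362069. Ccl6 was closest to Rab27a, a regulator of vesicle secretion (0.213), and glutamine synthetase Glul (0.247).

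Ccl20 was closest to the receptor Tlr2 (0.394) and the phosphodiesterase Pde4b (0.417), and Ccl5 to the neutrophil attractant Cxcl3 (0.567) and lipocalin Lcn2 (0.574). Ccl7 was closest to LOC120095279 (0.232) and Slamf6 (0.252). Ccl2 was closest to LOC680700 (0.238) and Pappa1 (0.239), a gene at 2.38, 0.0149 and 2.60 FPKM in LPS, so that it too was lowest in number 2. Both were low, with means of 0.382 and 0.0701 FPKM in Control and 2.69 and 1.66 in LPS. LOC102547847 and LOC120095279 were low in Control too (0.427 and 0.722 FPKM). At such levels the added 1 shrinks log2 differences, so a small RMS does not mean a like fold change. Ccl24 was closest to Rps4y2 (0.313), a ribosomal protein gene described as Y-linked, and to Ccl1 (0.656), both highest in number 3 and lowest in number 2 of each group. The nearest gene thus lay farther off for Ccl5 and Ccl20 than for the other 8, where it lay at 0.171 to 0.313.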

How the data were processed

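RNA from 9 rat dendritic cell cultures (Control, LPS and LPS+EVs, n = 3 each) was sequenced, and groups and replicate numbers come from the sample titles. The authors deposited FPKM values, a unit inferred from the values because the header names none. Per the submitters' processing notes fastp, HISAT2, HTSeq, R 3.2.0 and build mRatBN7.2 were used, with settings not given in the sources used here. Steps of the deposited FPKM gave whole reads (tolerance 0.02) for 18833 of 18833 genes seen in at least 2 libraries, and totals of 32148519 to 39407116 reads. The count tests planned for a table of counts did not apply. limma 3.58.1 (R 4.3.3) fitted log2(FPKM + 1) of all 9 libraries with 1 mean per group and a variance trend, for genes of at least 1 FPKM in at least 3 libraries, and was tested on simulated data. Named genes are the 10 members, up to 4 genes per list with the smallest adjusted p in a comparison, and the 2 genes nearest in pattern. Others named from the lists (called genes beyond 4, genes called only with the block, and markers) and the ratios were chosen after their values were seen. The members and lists were chosen with earlier results of these data known. Part of the receptor list is not reported here.

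Libraries of the same replicate number deviated together from their group means (correlations of 0.284 to 0.863 in 9 pairs, against -0.745 to 0.426 in 18 pairs of different numbers), so the numbers were taken to pair the cultures from the data and not from the labels. The 2 ranges overlap. Deviations from a group mean also cancel out over its libraries, so the 18 pairs are no independent comparison, and the pairing remains an assumption. Values from the fit blocked on that number are printed where they change a call of a gene named here or a count over 1.5 times. Alternatives were an added value of 0.1, other filters, median-of-ratios scaling, the 6 compared libraries alone, the block with and without that scaling, limma-voom with TMM on recovered reads (2074 genes higher and 2308 lower in LPS against Control) and leaving out each library. Libraries numbered 1 and 3 alone were chosen after seeing the data. Tables and figures were made in Python 3.11.15 with matplotlib 3.10.9, pandas 2.3.3 and numpy 2.4.6.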

Additional observations from a re-analysis of the deposited data

How the results depend on the processing

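Leaving out each library in turn kept 5 to 7 CC chemokine genes higher and 1 lower in LPS against Control. The genes called lower there went from 1 to 3 with the replicate block, with and without median-of-ratios scaling. In LPS+EVs against Control they went from 1 to 0 with median-of-ratios scaling and to 2 with the block, with and without that scaling. Over all genes, those called higher in LPS against Control were 2694 with the block and median-of-ratios scaling, 2074 with limma-voom, and 891 to 1496 without 1 library (lowest without Control replicate 1). Those called lower were 1884 to 3185 without 1 library (lowest without Control replicates 1 and 3). In LPS+EVs against Control 2819 were higher with the block and that scaling, and 2194 to 3196 were lower without 1 library. In LPS+EVs against LPS it was 0 to 1 without 1 library. Uncalled differences there changed sign when 1 library was left out, with ranges of -1.10 to 0.038 for Ccl2, -0.0044 to 0.10 for Ccl3, -0.39 to 0.44 for Ccl5, -0.70 to 0.12 for Ccl7, -0.30 to 0.43 for Ccl22 and -1.10 to 0.91 for Ccl24. For Ccl17 in LPS+EVs against Control the range was -0.59 to 0.076. The cause was not tested. As shares of reads, which are not per length, Ccl2 held 19.4%, Ccl3 3.46%, Ccl7 11.7% and Ccl24 1.10% in Control, and Ccl4 3.43% in LPS and 2.88% in LPS+EVs. Ccl6 held 32.6%, 4.89% and 6.51% (Control, LPS, LPS+EVs), Ccl17 11.6%, 3.37% and 4.50%, and Ccl22 18.6%, 32.1% and 35.9%. The block alone changed the calls of Ccl2, Ccl17 and Ccl24 in LPS against Control and of Ccl24 in LPS+EVs against Control, and with that scaling also Ccl2 in LPS+EVs against Control (1.12, adjusted p = 0.0287), and no other call of the 10 genes. Depth limits Ccl20 most, at 7 reads in Control replicate 2.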
